A study of Mus musculus with 2 samples.

Results

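A set of 10 genes that drive or restrain blood vessel growth, Vegfa, Vegfb, Pgf, Angpt2, Flt1, Kdr, Nrp1, Serpinf1, Thbs1 and Timp3, was followed by cell class in the diabetic and the control mouse retina. They were chosen by symbol, and all 10 were found among the 32285 genes of the deposited count matrices. The db/db library came from C57BLKS mice homozygous for the db mutation of the leptin receptor gene Lepr, a model of type 2 diabetes with obesity. The WT library came from C57BLKS mice with the wild-type Lepr gene, which the submitters also call m/m. Both were untreated, 13 weeks old, and made from the retinas of 2 mice pooled into 1 library. Sex was not given in the labels, and cells could not be assigned to the mouse of origin.

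The vascular endothelial growth factors are secreted ligands that drive vessel sprouting and leak through receptor tyrosine kinases on endothelial cells. VEGF-A acts mainly through VEGFR2, the product of Kdr, while VEGFR1, the product of Flt1, binds VEGF-A tightly, signals weakly and can act as a decoy. In the retina, Muller glia, photoreceptors and the pigment epithelium are known sources of VEGF-A, and inhibitors from the pigment epithelium and the matrix, such as PEDF, thrombospondin and TIMP3, counter it.

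The db/db library held 33742189 unique molecular identifiers (UMIs) over 11083 barcodes and the WT library 35642274 over 10308. After filtering, 10963 db/db and 10230 WT cells remained, with medians of 2051 and 2314 UMIs, and 26 barcodes occurred in both libraries. Marker gates gave 9529 db/db and 8358 WT rods, 324 and 313 cones, 322 and 380 bipolar cells, 111 and 168 Muller glia, 17 and 74 amacrine cells, 55 and 57 microglia or macrophages, 38 and 21 red blood cells, and 11 and 43 pigment epithelium cells. All 12 Muller markers and all 13 bipolar markers were at least 2 times as high in their class as in the other kept cells of both libraries. Of 13 pigment epithelium markers, 11 in db/db and 12 in WT met that level, as did 11 and 10 of 13 rod markers. The gates used these same markers, in rods 9 of the 13, so these excesses are no separate check of the classes. The vessel wall was almost missing: 4 db/db and 3 WT barcodes passed the endothelial gate, and no barcode in either library carried 3 or more pericyte markers. With 1 library per genotype there was no test between genotypes and no replicate check. Intervals in brackets are 95% intervals for counting error, and cover neither variation between animals nor that of tissue dissociation. Levels are UMIs per 1000000 UMIs of the class (CPM), and ratios are db/db to WT.

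Vegfa, Flt1 and Kdr encode the ligand and the receptor kinases that bind it, and the 250 bases upstream of their annotated starts are shown because, among the classes with more than 10 cells in each library, each of these genes had its highest level per UMI in Muller glia. They are RefSeq sequences of build GRCm38.p6, read 5′ to 3′ on the minus strand on which each gene lies, at chr17:46032378-46032627 for Vegfa (the main of 2 listed starts), chr5:147726012-147726261 for Flt1 and chr5:75978456-75978705 for Kdr. Capitals mark the GC box GGGCGG on either strand, its reverse complement being CCGCCC.
Vegfa: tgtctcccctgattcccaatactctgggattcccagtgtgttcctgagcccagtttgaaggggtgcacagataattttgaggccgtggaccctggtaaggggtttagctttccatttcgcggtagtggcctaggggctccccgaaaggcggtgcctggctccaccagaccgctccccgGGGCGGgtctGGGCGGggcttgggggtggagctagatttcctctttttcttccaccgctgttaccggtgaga
Flt1: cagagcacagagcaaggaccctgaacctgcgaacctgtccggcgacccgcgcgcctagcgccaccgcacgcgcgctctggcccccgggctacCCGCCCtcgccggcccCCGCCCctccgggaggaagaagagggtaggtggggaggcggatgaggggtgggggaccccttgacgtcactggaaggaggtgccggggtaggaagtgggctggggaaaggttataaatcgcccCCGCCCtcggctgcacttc
Kdr: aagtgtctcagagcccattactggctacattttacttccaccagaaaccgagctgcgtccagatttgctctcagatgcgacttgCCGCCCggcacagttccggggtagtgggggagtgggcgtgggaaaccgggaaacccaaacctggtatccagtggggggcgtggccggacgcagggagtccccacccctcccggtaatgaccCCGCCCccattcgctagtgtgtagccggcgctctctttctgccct
The GC box occurred 2 times in the Vegfa window, 3 times in the Flt1 window and 2 times in the Kdr window. It was present in 32.7% of the 32851 windows of this length in the RefSeq table. The core of the hypoxia response element, ACGTG on either strand, was in none of these windows and in 16.6% of all windows, and the window of the other Vegfa start held 1 copy. Windows were listed for 8 of the 10 genes. Such matches describe the letters only.

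Across classes, the genes fell into those spread over neurons and glia and those nearly limited to glia or pigment epithelium. Rods held 57.2% of Vegfa UMIs in db/db and 46.8% in WT, while Muller glia held 12.8% and 14.7%. Of Flt1 UMIs, Muller glia held 56.4% in db/db and 61.9% in WT. Muller glia, which were 1.01% of kept db/db cells and 1.64% of kept WT cells, also held 56.7% and 56.4% of Kdr and 66.9% and 62.2% of Timp3. Rods were 86.9% of kept db/db cells and 81.7% of kept WT cells, so that Muller glia held far more, and rods fewer, UMIs of every one of these genes than their share of cells.

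**Figure D1:**
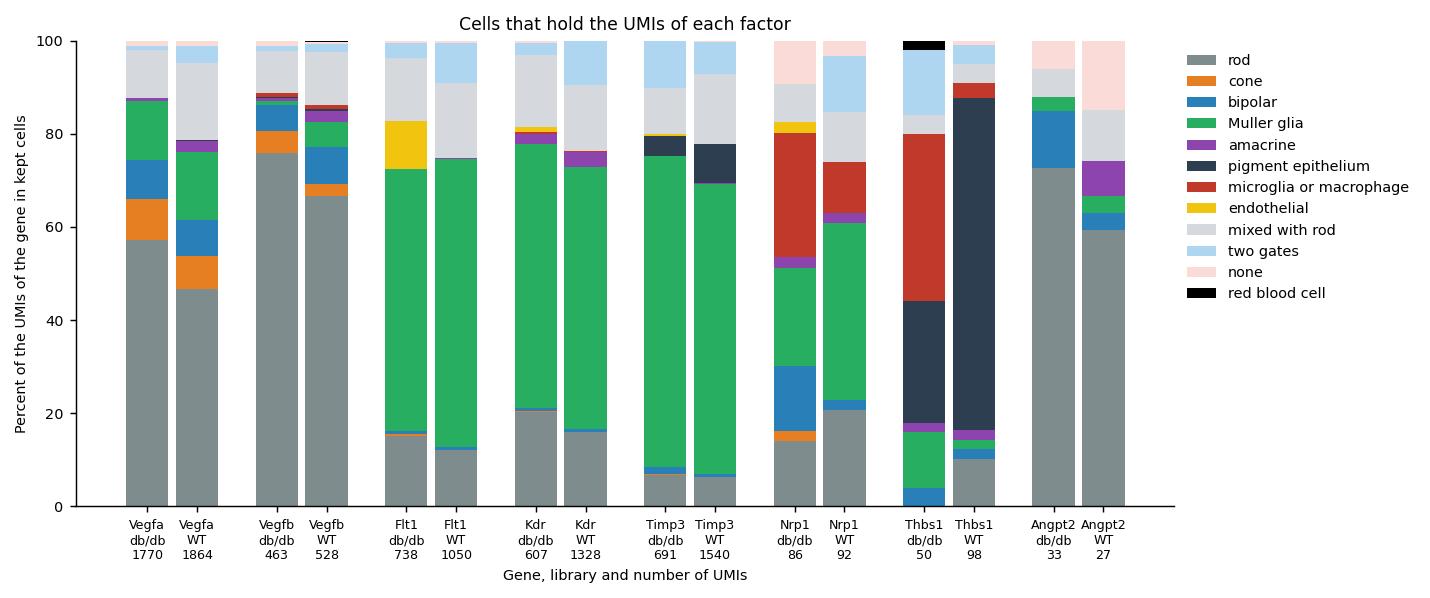
Percent of the UMIs of each gene in kept cells (y axis) that lay in each gated class, for 8 genes in the db/db and WT libraries, with the number of UMIs under each bar. Rods made up the largest part for Vegfa, Vegfb and Angpt2, and Muller glia for Flt1, Kdr and Timp3; Thbs1 lay largely in pigment epithelium in WT (71.4%).

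In whole libraries, 8 genes reached 50 UMIs over both libraries, the minimum for a gene to count as measured. Kdr, Timp3 and Thbs1 were past 1.5-fold lower in db/db and none was past it in the other direction, where 7.44% of the 13813 measured genes were as much lower and 2.22% as much higher. Kdr had 607 UMIs in db/db and 1328 in WT, a log2 ratio of -1.05 (-1.19 to -0.91). Timp3 had 691 UMIs in db/db and 1540 in WT (-1.07, -1.21 to -0.94), and Thbs1 50 and 98 (-0.89, -1.41 to -0.38). Flt1 was lower by less, with 738 UMIs in db/db and 1050 in WT (-0.43, -0.56 to -0.29). Vegfa, with 1770 UMIs in db/db and 1864 in WT, was nearly level at 0.01 (-0.09 to 0.10). The cells that carry the 4 lower genes also differed in number: the 12 Muller markers summed to 650 CPM of the whole db/db library and 990 CPM of the WT library; pigment epithelium cells, high in Timp3 and Thbs1, numbered 11 and 43. In whole libraries, fewer cells of a type and less RNA per cell cannot be told apart, so the genes are given by class below.

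Vegfa (ENSMUSG00000023951; GRCm38 chromosome 17, 46016993 to 46032369, minus strand) encodes the main vessel growth factor of the retina. Its level was highest in Muller glia, at 454 CPM (397 to 517) in db/db and 330 CPM (292 to 372) in WT. Bipolar cells had 139 CPM in db/db and 108 CPM in WT, cones 113 and 103 CPM, and amacrine cells 121 and 95.5 CPM. The intervals of these 3 neuron classes overlapped one another, and in both libraries all of them lay below Muller glia and above rods. Rods had 37.4 CPM (35.1 to 39.8) in db/db and 32.7 CPM (30.5 to 34.9) in WT, so that Muller glia were 12.1-fold (10.5 to 14.0) higher than rods in db/db and 10.1-fold (8.80 to 11.6) higher in WT. Pigment epithelium cells, known as a Vegfa source, held 0 Vegfa UMIs in db/db and 3 UMIs in 3 of 43 WT cells. The interval for 0 of 11 db/db cells allows a share of up to 28.5% of cells with a UMI.

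Free RNA gives UMIs in cells that do not make a gene, and rods were set against red blood cells, which should lack Vegfa. Microglia or macrophages are given beside them, and whether they make Vegfa was not tested. A Vegfa UMI was found in 9.09% of db/db rods (8.52 to 9.68) and 8.99% of WT rods (8.38 to 9.62). It was found in 1 of 38 db/db red blood cells (2.63%, 0.0666 to 13.8) and 0 of 21 WT ones (0 to 16.1). In microglia or macrophages it was found in 0 of 55 db/db cells (0 to 6.49) and 2 of 57 WT cells (3.51%, 0.428 to 12.1). Of these 4 intervals, the db/db microglia one alone lay below the rod share. Those cells had more UMIs than rods in db/db, with medians of 9793 and 4354 UMIs against 1945 in rods; in WT the medians were 5078 and 1898 UMIs against 2203.5. Red blood cells had a median of 284 genes in each library. The rod level of Vegfa was 8.24% of the Muller level in db/db (7.13 to 9.56) and 9.89% in WT (8.62 to 11.4). For the 12 Muller markers the same percentage had a median of 0.650 (0.236 to 1.59 over markers) in db/db and 0.786 (0.417 to 2.36) in WT, so that Vegfa in rods lay above every Muller marker. Vegfa UMIs were not limited to Muller glia: cones held 154 in db/db and 131 in WT, and bipolar cells 148 and 143, beside 227 and 274 in Muller glia. The markers thus cannot show how much free Vegfa RNA rods would hold. Whether rod Vegfa is free RNA was not tested.

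**Figure D2:**
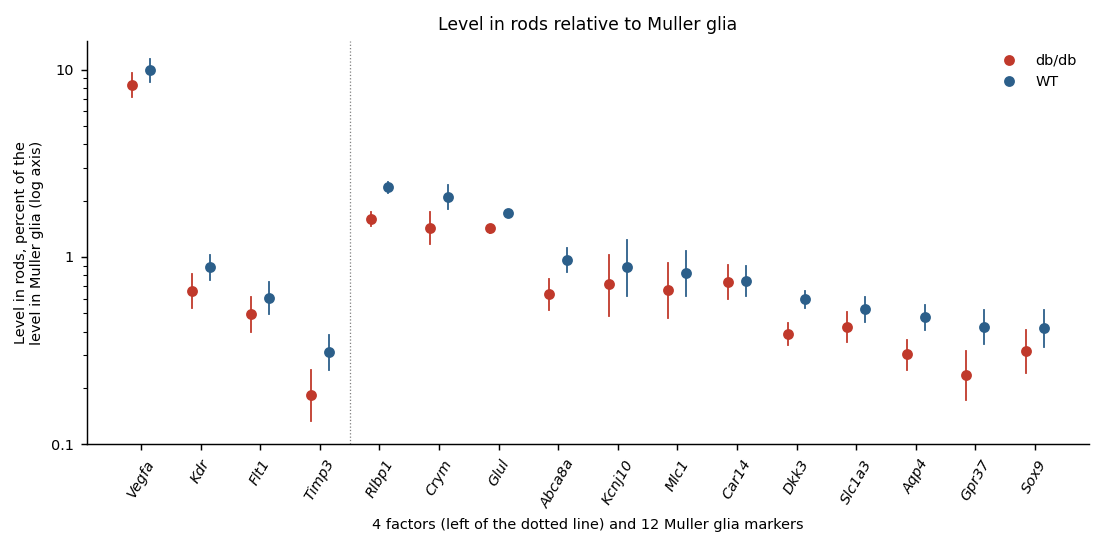
Level in rods as a percent of the level in Muller glia (log axis) for 4 genes, left of the dotted line, and for 12 Muller glia markers, in db/db and WT, with 95% counting intervals. Vegfa stood at 8.24% in db/db and 9.89% in WT, while Flt1, Kdr and Timp3 lay among or below the markers.

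Between the libraries, Vegfa per UMI was higher in db/db in each of the 5 classes in which it was measured, by less than 1.5-fold. It passed 1.5-fold in cones after thinning (0.75) and in amacrine cells with equal weight per cell (1.42). In whole libraries its log2 ratio was 0.01. Left-out cells mixed with rod RNA had 71.1 CPM (61.1 to 82.2) in db/db and 76.5 CPM (68.2 to 85.5) in WT. Cells in 2 gates held 14 Vegfa UMIs of 147014 in db/db and 69 of 346926 in WT. How many of all genes were higher in all 5 classes was not computed. In Muller glia Vegfa had 227 UMIs in db/db and 274 in WT, a log2 ratio of 0.46 (0.20 to 0.72). This was 1.37-fold, and 90.1% of the 4924 genes measured in Muller glia had a lower ratio. The share of Muller glia with a Vegfa UMI was 51.4% in db/db and 50.6% in WT, so the share did not follow the level. One db/db cell held 24 of the UMIs, and the fullest WT cell held 16. After thinning to 1000 UMIs per cell the shares were 29.5% (20.3 to 40.2) of 88 db/db and 23.6% (16.9 to 31.4) of 144 WT cells, and the log2 ratio was 0.18.

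Rods had 1013 Vegfa UMIs in db/db and 872 in WT, a log2 ratio of 0.20 (0.06 to 0.33), above 84.3% of the 12098 genes measured there. In bipolar cells the counts were 148 in db/db and 143 in WT, with a ratio of 0.36 (0.02 to 0.70). Cones had 154 and 131 UMIs, at 0.13 (-0.21 to 0.48), and amacrine cells 10 and 43, at 0.34 (-0.81 to 1.36). The lower bounds were above 0 in Muller glia, rods and bipolar cells and below 0 in cones and amacrine cells. Vegfa was the one member measured in cones, and 0 were past 1.5-fold there, where 5.15% of 6929 genes were.

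Among bipolar cells, Vegfa was lower in ON cells that carried a rod bipolar marker, at 87.7 CPM (60.7 to 123) in db/db and 73.1 CPM (50.3 to 103) in WT. ON cells without one had 182 CPM (142 to 230) in db/db and 122 CPM (92.1 to 159) in WT, and OFF cells 174 and 161 CPM. In db/db the intervals of the ON groups did not overlap, while in WT they did. Vegfa and Vegfb were the members measured in bipolar cells, and 0 were past 1.5-fold, where 7.67% of 7181 genes were.

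Vegfb, a related ligand that binds VEGFR1, was spread more evenly, with 75.8% of its UMIs in rods in db/db and 66.7% in WT. Rods had 351 UMIs in db/db and 352 in WT, or 13.0 and 13.2 CPM, with a log2 ratio of -0.02 (-0.24 to 0.19). Bipolar cells had 24.4 CPM in db/db and 31.0 CPM in WT, at -0.34 (-1.11 to 0.40). No neighbouring pair of classes in the order of its levels was separated in both libraries. Classes further apart in that order could be: bipolar cells (16.0 to 35.8 CPM in db/db, 22.3 to 42.1 in WT) lay above rods (11.6 to 14.4 and 11.8 to 14.6).

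In Muller glia the Vegfb counts were small and uneven, with 4 UMIs in 4 of 111 db/db cells and 29 UMIs in 24 of 168 WT cells. Together they stayed under 50 UMIs, so Vegfb did not count as measured there, and the log2 ratio was -2.13 (-4.10 to -0.62). With only Muller glia that carried 9 or more markers, 70 db/db and 118 WT cells, the counts were 3 and 29.

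Pgf, the placental growth factor and another VEGFR1 ligand, had 4 UMIs in the db/db library and 10 in the WT library, of which Muller glia held 2 and 4. Angpt2, which encodes angiopoietin-2, an antagonist of the TIE2 receptor, had 33 UMIs in db/db and 27 in WT. Rods held 24 of them in db/db and 16 in WT, each in a different cell, and it did not count as measured in any class. Angpt2 lies across the gene Mcph1 on the other strand, which had 149 UMIs in db/db and 169 in WT. The use of read strand in counting is not given in the sources used here, so whether reads of the overlapping genes were kept apart is not known from them.

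**Figure D3:**
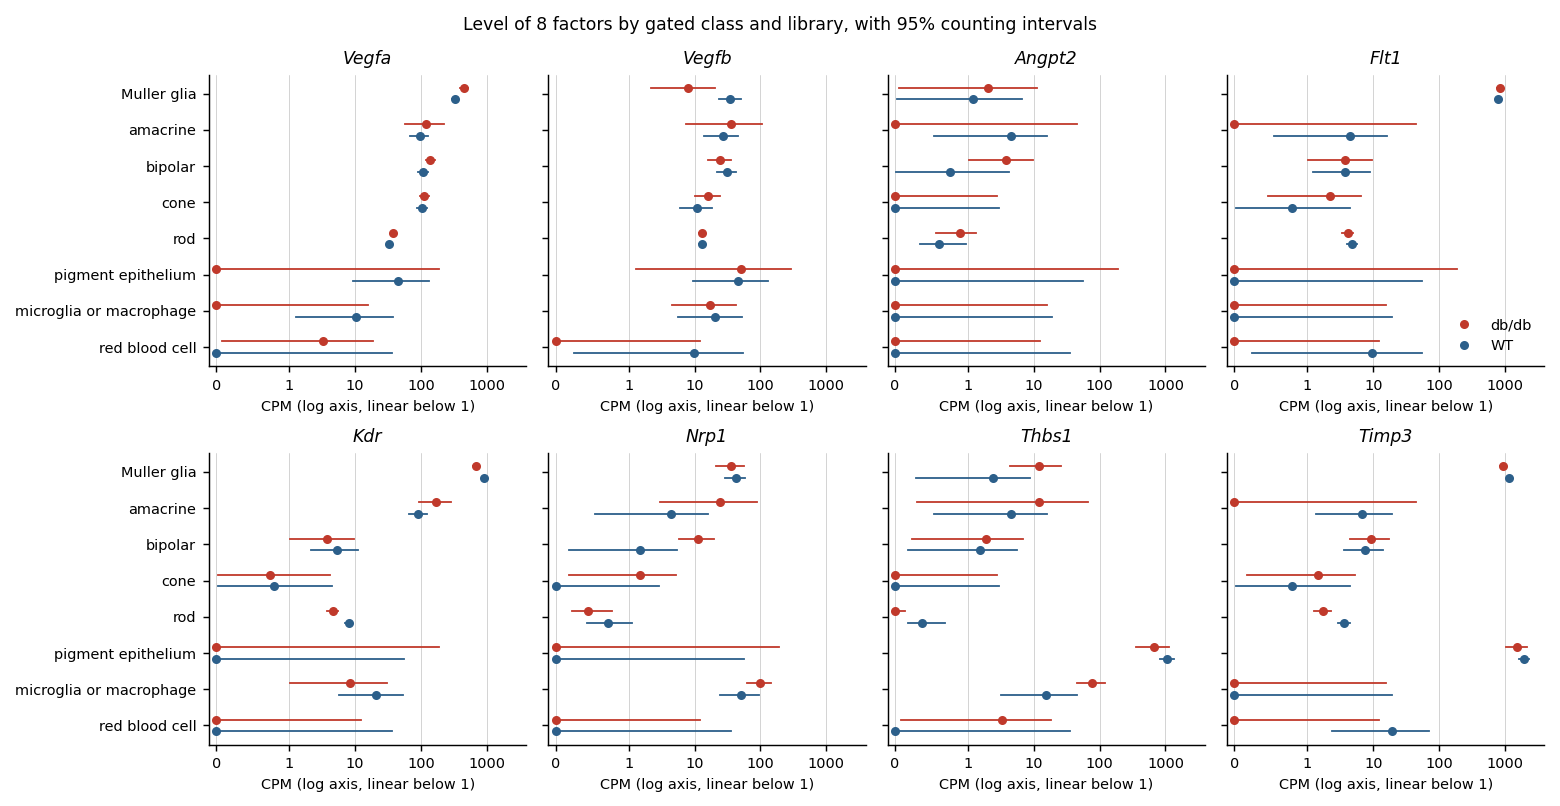
Level of 8 genes (CPM, log axis that is linear below 1) in each of 8 gated classes, db/db above WT, with 95% counting intervals. Vegfa spans neurons and glia, Flt1 stands at 832 CPM in db/db and 783 CPM in WT in Muller glia alone, Kdr has a lesser level in amacrine cells, and Timp3 and Thbs1 are highest in pigment epithelium.

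The RNAs of both VEGF receptors lay mainly in Muller glia. Flt1 (ENSMUSG00000029648; chromosome 5, 147561604 to 147726011, minus strand) had 416 UMIs in 111 db/db Muller glia and 650 in 168 WT ones. That was 832 CPM (754 to 915) in db/db and 783 CPM (724 to 846) in WT, a log2 ratio of 0.09 (-0.09 to 0.27). A Flt1 UMI was present in 70.3% of db/db and 79.8% of WT Muller glia, and in 44 of 88 and 76 of 144 cells after thinning. The level in Muller glia was 201-fold (163 to 250) that in rods in db/db and 165-fold (136 to 201) in WT. Flt1 was at 0 UMIs in microglia or macrophages and in pigment epithelium of both libraries, and red blood cells held 0 UMIs in db/db and 1 in WT. The counts do not separate membrane-bound from soluble VEGFR1, since they are per gene.

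Kdr (ENSMUSG00000062960; chromosome 5, 75932827 to 75978458, minus strand) had 344 UMIs in db/db and 749 in WT Muller glia. That was 688 CPM (617 to 764) in db/db and 903 CPM (839 to 970) in WT, a log2 ratio of -0.39 (-0.58 to -0.21), with 11.4% of measured genes lower. A Kdr UMI was present in 71.2% of db/db and 81.5% of WT Muller glia, and after thinning in 46.6% (35.9 to 57.5) and 57.6% (49.1 to 65.8). The intervals of the CPM did not overlap between the libraries, while those of the thinned shares did. Per 1000 UMIs of the 12 Muller markers in the same cells, Kdr had 32.0 UMIs in db/db and 43.4 in WT, and Flt1 38.7 and 37.6. The markers themselves summed to 21515 CPM in db/db and 20810 CPM in WT Muller glia.

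Amacrine cells were the next class for Kdr. They held 14 UMIs in 7 of 17 db/db cells and 41 UMIs in 25 of 74 WT cells, or 170 CPM (92.8 to 285) and 91.1 CPM (65.4 to 124). These levels were 24.7% of the Muller level in db/db (13.4 to 42.0) and 10.1% in WT (7.18 to 13.8). Muller markers in amacrine cells had a median of 0.710% in db/db and 0.785% in WT. The highest marker was Dkk3, at 38.0% and 30.7%, and the next was Crym, at 2.49% and 8.29%. Flt1, by contrast, had 0 UMIs in db/db and 2 in WT amacrine cells. The db/db to WT log2 ratio of Kdr in amacrine cells was 0.90 (-0.09 to 1.80), past 1.5-fold higher, as were 9.37% of 2316 genes measured there, and its interval held 0. Over the alternatives it ranged from 0.39 without the 8% of cells with the most UMIs, inside 1.5-fold, to 1.91 after thinning.

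In rod-gated barcodes, Kdr had 123 UMIs in db/db and 212 in WT, and Flt1 112 and 127. The shares of rods with a UMI were 1.12% in db/db and 1.99% in WT for Kdr, and 0.997% and 1.33% for Flt1. Bipolar cells, with a Kdr UMI in 1.24% of db/db and 1.58% of WT cells and a Flt1 UMI in 1.24% and 1.05%, had shares as low. Cones, deeper than rods at medians of 4472 UMIs in db/db and 4279 in WT, had 1 Kdr UMI in each library, in 0.309% and 0.319% of cells, and a Flt1 UMI in 0.926% and 0.319%. Red blood cells held 0 Kdr UMIs in 38 db/db and 21 WT cells, which allows shares of up to 9.25% and 16.1%. Whether these rod UMIs are free RNA was not tested. Kdr in rods was at 0.660% of the Muller level in db/db and 0.880% in WT, within the range of the Muller markers. Per UMI, Kdr was lower in db/db rods at -0.81 (-1.14 to -0.48) and Flt1 stood at -0.20 (-0.58 to 0.18). After thinning, Kdr was at -1.04 and Flt1 at -0.62, with 29 Flt1 UMIs in db/db and 36 in WT, so both were past 1.5-fold lower.

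Nrp1, which encodes the co-receptor neuropilin-1, was low, with 86 UMIs in db/db and 92 in WT over all kept cells. Muller glia had 18 UMIs in db/db and 35 in WT, or 36.0 and 42.2 CPM, with a log2 ratio of -0.23 (-1.14 to 0.63). It turned to 1.45 after thinning, which left 5 UMIs in db/db and 3 in WT. Microglia or macrophages had 97.5 CPM (61.8 to 146) in db/db and 51.7 CPM (24.8 to 95.1) in WT, with 23 UMIs in 13 of 55 cells and 10 UMIs in 7 of 57 cells. In bipolar cells 12 UMIs lay in 11 db/db cells and 2 UMIs in 2 WT cells. Of these, 11 in db/db and 1 in WT were in OFF cells, of which there were 56 in db/db and 53 in WT, and none was in the ON groups. This class stayed under 50 UMIs.

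Endothelial cells, where both receptors are best known, gave almost no data. Of the 75 Flt1 UMIs in the 4 db/db endothelial barcodes, 70 came from 1 cell that carried 11 of 12 endothelial markers, and this cell also held 6 of the 7 Kdr UMIs. The 4 barcodes had a Flt1 level of 8074 CPM (6351 to 10121), above the 832 CPM of db/db Muller glia. The 3 WT endothelial barcodes held 0 UMIs of either gene. That db/db cell alone gave 70 of the 738 Flt1 UMIs of the db/db library.

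Timp3 (ENSMUSG00000020044; chromosome 10, 86300372 to 86349506, plus strand) encodes a matrix-bound inhibitor of metalloproteinases that also blocks VEGF-A binding to VEGFR2. Pigment epithelium had the highest level, with 30 UMIs in 7 of 11 db/db cells and 129 UMIs in 33 of 43 WT cells, or 1550 CPM (1046 to 2213) and 1954 CPM (1632 to 2322). One db/db cell held 16 of the 30 UMIs, and the log2 ratio was -0.33 (-0.96 to 0.25). It turned to 0.31 with the stricter gate and was -1.68 with at most 10% mitochondrial UMIs. Muller glia came next, with 462 UMIs in db/db and 958 in WT, or 924 CPM (841 to 1012) and 1155 CPM (1083 to 1230). The ratio there was -0.32 (-0.49 to -0.16), with 15.2% of measured genes lower. Pigment epithelium stood 1.68-fold (1.12 to 2.43) above Muller glia in db/db and 1.69-fold (1.40 to 2.04) in WT, and both classes lay above the other classes in both libraries, the few endothelial barcodes left aside. The gate let through cells with much rod RNA: the median share of rod-only genes in pigment epithelium was 2.67% of UMIs in db/db and 1.90% in WT, against 3.54% and 3.69% in rods.

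A Timp3 UMI was present in 65.8% of db/db and 74.4% of WT Muller glia, and in 47.7% and 54.2% after thinning. In rods Timp3 had 46 UMIs in db/db and 96 in WT, in 0.409% and 1.04% of cells. These rod levels were 0.184% of the Muller level in db/db (0.133 to 0.249) and 0.311% in WT (0.250 to 0.384). Both values lay below that of every Muller marker. Their intervals overlapped that of the lowest marker, Gpr37 in db/db (0.173 to 0.316) and Sox9 in WT (0.331 to 0.521). A Timp3 UMI was found in 0.617% of db/db and 0.319% of WT cones and in 2.48% and 2.37% of bipolar cells. Per UMI the rod ratio was -1.08 (-1.62 to -0.56), and -0.31 after thinning. Timp3 lies within the span of Syn3 on the other strand, which had 59 UMIs in db/db and 108 in WT, of which Muller glia held 20 and 44.

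Of the 5 genes measured in rods, Kdr and Timp3 were past 1.5-fold lower and 0 were past it higher, where 2.42% of the 12098 measured genes were lower and 2.11% higher. After thinning, Kdr (-1.04) and Flt1 (-0.62) were past it and Timp3 (-0.31) was not. Muller markers also differed between the libraries in rods: the 12 markers summed to 219 CPM in db/db rods and 272 CPM in WT rods. Among rods with at most 1 Muller marker detected, 8773 in db/db and 7435 in WT, Kdr had 60 UMIs in db/db and 87 in WT at -0.69, and Timp3 29 and 56 at -1.10. Of the 5 genes measured in Muller glia, 0 were past 1.5-fold, where 9.99% of 4924 genes were in either direction. The median log2 ratio of those 5 was -0.23, beside 0.03 for all genes measured in that class.

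**Figure D4:**
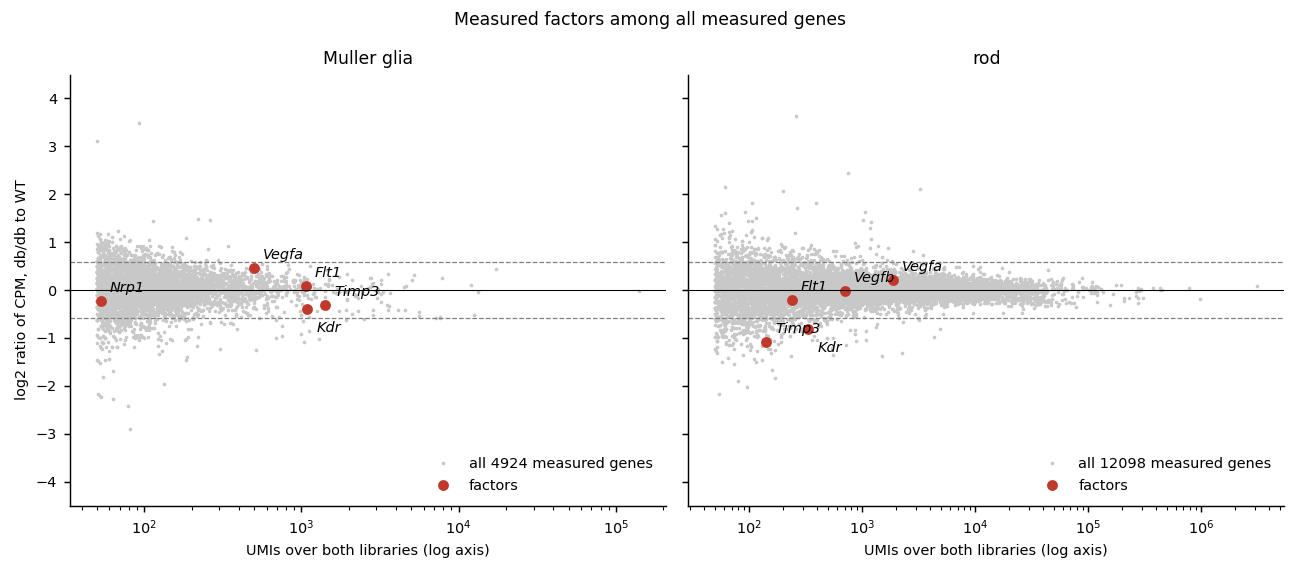
log2 ratio of CPM, db/db to WT, against UMIs over both libraries (log axis) for all measured genes (grey) in Muller glia and in rods, with the measured factors in red and 1.5-fold marked by dashed lines. The 5 factors in Muller glia lie inside the lines, and Kdr and Timp3 in rods lie below them.

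Thbs1 (ENSMUSG00000040152; chromosome 2, 118111876 to 118127133, plus strand) encodes thrombospondin-1, a secreted inhibitor of endothelial growth. It was highest in pigment epithelium, with 13 UMIs in 4 of 11 db/db cells and 70 UMIs in 29 of 43 WT cells. The levels were 672 CPM (358 to 1149) in db/db and 1060 CPM (827 to 1340) in WT, a log2 ratio of -0.66 (-1.64 to 0.21). Thbs1 and Timp3 were found together in 3 of the 11 db/db cells and in 27 of the 43 WT cells. Of the 2 genes measured in this class, Thbs1 was past 1.5-fold lower, as were 12.1% of 182 genes, and its interval held 0. Over the alternatives it ranged from -1.79 with equal weight per cell to -0.39 with at least 500 genes per cell, and it was inside 1.5-fold in the last of these, after thinning (-0.54) and with the mitochondrial limit at 10% (-0.52). Pigment epithelium held 26.0% of all Thbs1 UMIs in db/db and 71.4% in WT.

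Outside that class Thbs1 rested on few cells. Microglia or macrophages had 18 UMIs in db/db and 3 in WT, and 16 of the 18 were in 1 cell. Muller glia had 6 UMIs in 1 db/db cell and 2 in 1 WT cell. In rods it was at 0 UMIs in db/db and 10 UMIs in 8 WT cells. Serpinf1 encodes PEDF, an inhibitor for which the pigment epithelium is the textbook source, and it had 6 UMIs in db/db and 1 in WT over all kept cells. Microglia or macrophages held 4 of the 6, in 4 cells. Pigment epithelium held 0 in both libraries, which in 11 db/db and 43 WT cells allows shares of up to 28.5% and 8.22% of cells with a UMI.

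**Figure D5:**
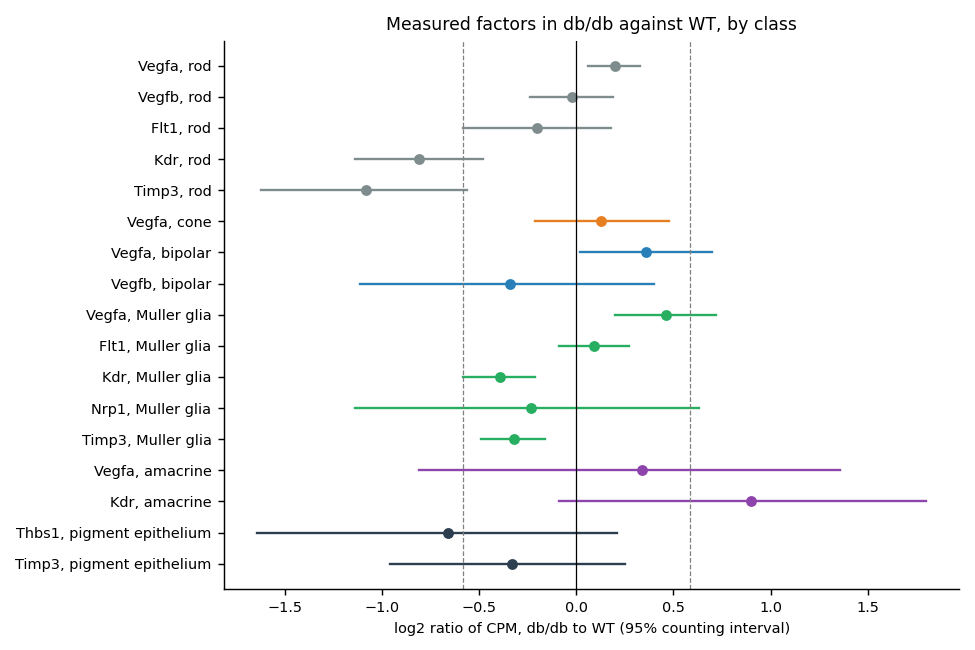
log2 ratio of CPM, db/db to WT, with 95% counting intervals, for each gene and class with at least 50 UMIs over both libraries, coloured by class, with 1.5-fold marked by dashed lines. Vegfa lies above 0 in all 5 classes shown, Kdr and Timp3 lie below 0 in rods and Muller glia, and Kdr lies above 0 in amacrine cells with an interval that holds 0.

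Within Muller glia, the ligand and the other genes were often detected in the same cells. Vegfa, Flt1, Kdr and Timp3 were all detected in 45 of 111 db/db cells (40.5%) and 77 of 168 WT cells (45.8%). None of them was detected in 17 db/db cells (15.3%) and 15 WT cells (8.93%). Flt1 and Kdr occurred together in 70 db/db and 125 WT cells, and Flt1 without Kdr in 8 and 9. Of the 57 db/db cells with Vegfa, 54 also had Flt1 and 50 also had Kdr, and of the 85 WT cells 80 and 79 did. Vegfa and Flt1 were thus together in 48.6% of db/db and 47.6% of WT cells, where the product of their shares was 36.1% and 40.4%. For Vegfa and Kdr it was 45.0% and 47.0%, with products of 36.5% and 41.3%. Detection of every gene depends on the depth of a cell, and the medians were 4527 UMIs in db/db and 4982.5 in WT Muller glia.

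Other genes of the pathway were mostly inside 1.5-fold in Muller glia. Of 5 measured ligands 0 were past 1.5-fold; the matricellular ligands Ccn1 and Ccn2 were at -0.52 (-0.64 to -0.40) and -0.57 (-0.82 to -0.34), the heparin-binding factor Mdk at -0.07 and Tgfb2 at 0.19. Of 4 receptors 1 was past it higher, where 4.79% of all measured genes were: Pdgfrb, a receptor for PDGF-B, had 108 CPM in db/db and 66.3 CPM in WT (0.70, 0.13 to 1.27). Notch1 stood at 0.09, Fgfr1 at -0.00 and S1pr1 at 0.16. Of 7 inhibitors and matrix genes 1 was past it lower, where 5.20% were: Spry1, an inhibitor of receptor tyrosine kinase signalling, had 30 UMIs in db/db and 93 in WT (-0.90, -1.55 to -0.29). Its relative Spry2 was at -0.40 (-0.76 to -0.05), the metalloproteinase Adamts1 at -0.42 (-0.57 to -0.28) and Timp2 at -0.29.

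Hypoxia sensors and targets were listed because Vegfa is itself a known hypoxia target. In Muller glia 1 of 11 was past 1.5-fold higher, where 4.79% of all measured genes were: Bnip3, a mitophagy receptor, with 106 CPM in db/db and 63.9 CPM in WT (0.73, 0.15 to 1.31). The glycolytic enzyme gene Pgk1 was at 0.37 (0.09 to 0.65), P4ha1 at 0.21 and Ndrg1 at -0.29, and the median was -0.04. In rods 0 of 15 were past 1.5-fold, where 4.53% of the 12098 measured genes were in either direction. All 15 ratios were above 0, and the median was 0.14 beside 0.02 for all measured genes. That median was also above 0, and the share of all measured genes above 0 was not computed. The largest of the 15 in rods was Pdk1, a kinase that restrains pyruvate dehydrogenase, with 29.2 CPM in db/db and 20.3 CPM in WT (0.53, 0.37 to 0.69). Vhl was at 0.24, Epas1 at 0.23 and Slc2a1 at 0.20.

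In rods 4 of 10 measured ligands were past 1.5-fold lower, where 2.42% of all measured genes were: Ccn2 (-2.16), Ccn1 (-2.02), Ptn (-0.86) and Tgfb2 (-0.81), 4 genes that were also measured in Muller glia. In rods they had 0.369 to 3.77 CPM in db/db and 1.65 to 6.85 CPM in WT. Muller glia had Ccn2 at 412 CPM in db/db and 613 CPM in WT, and Ccn1 at 1699 and 2434 CPM. Ptn stood there at 1049 and 1064 CPM and Tgfb2 at 498 and 436 CPM. Whether the rod UMIs of these 4 genes are free RNA was not tested. Of 6 receptors in rods 0 were past 1.5-fold, with Plxnd1 at -0.39, Notch1 at -0.36, Flt4 at -0.33 and Acvrl1 at 0.29. Of 8 inhibitors and matrix genes 1 was higher and 2 were lower, where 2.11% of all measured genes were higher and 2.42% lower. The higher one was Col4a3, a type IV collagen chain that is the source of the fragment tumstatin, with 750 UMIs in db/db and 266 in WT, or 27.7 and 9.96 CPM (1.47, 1.27 to 1.68). The lower ones were Adamts1 (-0.90) and Timp2 (-0.69). Muller glia had these at 1197 and 140 CPM in db/db, against 1.33 and 0.997 CPM in rods, and free RNA was not tested here either. That list also held Isl1 (-0.48), a transcription factor of bipolar cells rather than a vessel inhibitor.

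The genes whose profile over the 8 classes of both libraries was most like that of Vegfa were Mageh1 (Pearson r 0.960), Acyp2 (0.960), Nipal3 (0.952), C130071C03Rik (0.945) and Rab34 (0.943). For Timp3 they were Itgb8 (0.968), Sntb1 (0.956), Pdpn (0.956), Heph (0.952) and Col9a3 (0.951). Each r is over 16 points, 1 per class and library on the log2(CPM + 1) scale, among 12747 genes. Points of 1 library share its depth and free RNA, and the ranking is a description. Serpinf1 had too few UMIs for a profile.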

How the data were processed

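Retinal single-cell suspensions of 1 db/db and 1 WT library, each from 2 pooled mice, were profiled with a droplet method that tags 3' ends. The deposited values were raw UMI counts per gene and barcode made by the authors with cellranger 6.0.1, per the file headers, on mm10, per the submitters' processing notes. How cells were told from empty droplets, which annotation release was used and whether strand was used are not given in the sources used here.

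Cells with at least 200 genes and at most 20% mitochondrial UMIs were kept. Classes were gated by markers, without clustering: at least 4 of 12 Muller markers and 0.3% of UMIs, 4 of 13 bipolar markers and 0.3%, 5 of 9 cone markers and 0.5%, 3 of 8 amacrine markers and 0.1%, 3 of 13 pigment epithelium markers and 0.3%, 4 of 11 microglia or macrophage markers and 0.3%, 3 of 5 red blood cell markers and 30%, and 3 of 12 endothelial markers and 0.1%. Cones, bipolar, Muller and amacrine cells also needed a share of 9 rod-only genes under 0.5 times the library median. Cells over that limit (385 db/db, 603 WT) or in 2 gates (23 and 50) were left out. Rods passed no other gate and lay at or over the limit. ON and OFF bipolar cells were split by their markers. No doublet caller was run. These gated classes are rebuilt and may differ from the study's.

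UMIs were summed per class and library and scaled to a class total of 1000000 (CPM). Intervals at 95% were exact Poisson for levels, Clopper-Pearson for shares and conditional binomial for ratios, and a count of 0 was given a floor of 3 counts. Genes with at least 50 UMIs over both libraries in a class counted as measured, and 1.5-fold (log2 0.58) was the size used for counts, with no test. Shares were also taken after thinning to 1000 UMIs per cell. The named genes were all 10 members where measured, the 5 most alike for Vegfa and Timp3, and up to 4 measured pathway genes per role with the largest ratio. Members and lists were chosen with earlier results of these data known. The ratio method was tested on simulated counts. Alternatives covered cell filters, gates, scaling, depth, free RNA and the UMI minimum. Tools were Python 3.11.15, numpy 2.4.6, scipy 1.17.1, pandas 2.3.3 and matplotlib 3.10.9. Positions are GENCODE GRCm38, and promoter sequences are RefSeq GRCm38.p6.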

Additional observations from a re-analysis of the deposited data

How the results depend on the processing

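Over the 17 single ratios named in rods, cones, bipolar, Muller, amacrine and pigment epithelium cells, 201 alternative values were computed, of which 187 stayed within the counting interval of the value reported and 14 moved outside it. In Muller glia the ratios ranged from 0.18 to 0.52 for Vegfa, -0.08 to 0.13 for Flt1, -0.49 to -0.36 for Kdr and -0.52 to -0.29 for Timp3, with the lowest Vegfa value from thinned cells. Nrp1 there ranged from -0.44 to 1.45, Timp3 in pigment epithelium from -1.68 with at most 10% mitochondrial UMIs to 0.31 with the stricter gate, and Vegfb in rods reached 0.27. In thinned cells, Timp3 in rods was at -0.31, Flt1 in rods at -0.62 and Vegfa in cones at 0.75. The number of genes past 1.5-fold in rods was 1 with at least 200 UMIs and 3 with at least 20. Of all genes in rods, 1.60% of 10062 and 8.65% of 13681 were past it at these minimums. The number was 1 in cones in thinned cells. In Muller glia it was 1 in thinned cells and 1 with at least 20 UMIs, where 19.6% of all genes were past 1.5-fold. In amacrine cells it was 0 without the 8% of cells with the most UMIs, and 2 with equal weight per cell; thinned cells gave no Vegfa ratio there, with 0 UMIs in db/db and 7 in WT. In pigment epithelium it was 0 with at least 500 genes per cell and 2 with equal weight per cell. The share of all genes past 1.5-fold was not computed for thinned, reweighted or refiltered cells, and the cause of these shifts was not tested. Alternatives that required 9 Muller markers, rods with at most 1 Muller marker, or kept cells mixed with rod RNA were chosen after seeing the data. No paired analysis was possible because each genotype had 1 library. Cell numbers limit pigment epithelium, amacrine and endothelial cells, and free RNA, assumed at 76.0% of db/db and 65.0% of WT pigment epithelium UMIs from rod genes, limits the pigment epithelium further.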

Other observations

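In microglia or macrophages, Adamts1, a secreted metalloproteinase that can release antiangiogenic fragments of thrombospondins, had 412 UMIs in 55 db/db cells and 147 in 57 WT cells, or 1747 and 760 CPM, a log2 ratio of 1.20 (0.93 to 1.48). It was 1 of 3 measured inhibitors and matrix genes in that class and the one past 1.5-fold higher, where 8.05% of the 1329 measured genes were. Sparc, a matricellular protein gene, was at -0.33 (-0.66 to -0.00) and Timp2 at -0.39 (-1.22 to 0.43) in the same cells. The ligand gene Pdgfb, which encodes a growth factor for pericytes, had 534 CPM in db/db and 398 CPM in WT (0.42, 0.00 to 0.85). The median depth of these cells was 4354 UMIs in db/db and 1898 in WT, and its part in these ratios was not tested. In rods and Muller glia the Adamts1 ratio lay below 0, at -0.90 and -0.42. Its level in rods was 1.33 CPM in db/db and 2.47 CPM in WT, against 1197 and 1607 CPM in Muller glia. Whether the rod UMIs of Adamts1 are free RNA was not tested.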
